A study of Mus musculus with 12 samples.

Results

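The genes described here are the Ighv genes, which encode the variable part of the immunoglobulin heavy chain, as they were counted in epididymal white adipose tissue (eWAT) of mice. They were chosen by total counts: of 49315 rows in the count table, 185 carried an Ighv symbol, and the 78 of these with 20 or more counts summed over the 12 libraries were kept. The other 107 rows were 39 with 1 to 19 counts and 68 without a count. The 78 genes held 34229 of all 34442 Ighv counts (99.4%). Just inside the limit lay Ighv1-36 with 20 counts and Ighv1-71 with 23, and just outside it Ighv1-31 with 19, Ighv2-6 with 18 and Ighv5-2 with 18.

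The mice were either flox (Mir181a2b2 flox/flox, the floxed control line) or KO (Mir181a2b2-/-, a whole-body deletion of that microRNA cluster). All of them were fed for 12 weeks with a diet of 60% fat and were injected intraperitoneally each week with vehicle or with methotrexate (MTX, an antifolate used in inflammatory disease) at 1 mg/kg. This gave 4 groups of 3 libraries: flox vehicle, KO vehicle, flox MTX and KO MTX. The labels do not say that each library came from its own animal, so every SD and p-value below measures the spread between these libraries, and replicate numbers are only names. Total counts ran from 19495310 to 23976469 per library. The deleted genes could not check the genotype labels, because Mir181a-2 had 2 counts in all, in 1 flox MTX library, and Mir181b-2 had 0. Adipocyte markers were abundant in every library (9629 to 47782 CPM, library-size-scaled counts, summed over 9 genes), and epididymis markers summed to 1458 to 12336 CPM in the flox vehicle libraries, 4.45 to 478 in flox MTX, 5.42 to 10.2 in KO vehicle and 0.83 to 12.1 in KO MTX.

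Each developing B cell joins 1 V segment to a D and a J segment, so the V segment in a B cell's heavy-chain mRNA is a fixed mark of that cell and of its descendants. A broad B cell population uses many V segments, whereas the expansion of a few clones, or of plasma cells with their very high immunoglobulin mRNA, raises the share of a few of them. B-1a cells, a self-renewing population of the body cavities and of fat tissue, are known for recurrent receptors such as the phosphatidylcholine-binding ones built on Ighv11-2 or Ighv12-3. In whole tissue, fewer B cells and less immunoglobulin mRNA per cell cannot be told apart, and a count per V segment does not separate clones that share it.

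All 78 genes are annotated as functional V genes (IG_V_gene) on the minus strand of chromosome 12 (GRCm38) between positions 113572927 and 116010093. They covered 14 of the 16 annotated families, with 40 genes of Ighv1 and 8 of Ighv5. Their transcripts are 294 to 461 bases long (median 351), so shares of counts differ from shares per base for genes far from the median. The longest annotated transcript is that of Ighv11-2. Counted per base, the highest share of a library changed by at most 5.46 percentage points. The V segments that held the highest share in at least 1 library were 8 in number. Their last 90 bases (read from the GENCODE M21 transcripts, GRCm38, minus strand, written 5′ to 3′) are shown since this 3′ end is where D and J segments are joined. The capitals mark the germline bases after the codon of the conserved cysteine, the start of CDR3, which is the part that recombination trims and extends.
Ighv11-2 (chr12:114048241-114048330): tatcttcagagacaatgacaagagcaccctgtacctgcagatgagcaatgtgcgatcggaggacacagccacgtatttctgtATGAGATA
Ighv14-2 (chr12:113994469-113994558): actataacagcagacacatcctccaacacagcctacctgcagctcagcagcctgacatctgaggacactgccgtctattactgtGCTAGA
Ighv1-81 (chr12:115920279-115920368): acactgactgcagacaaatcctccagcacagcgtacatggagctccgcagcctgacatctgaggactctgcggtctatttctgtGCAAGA
Ighv10-3 (chr12:114523441-114523530): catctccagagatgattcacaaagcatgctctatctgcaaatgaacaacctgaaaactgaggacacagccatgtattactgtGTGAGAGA
Ighv8-8 (chr12:115294062-115294151): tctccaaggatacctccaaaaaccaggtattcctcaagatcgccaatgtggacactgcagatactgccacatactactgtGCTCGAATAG
Ighv6-6 (chr12:114434788-114434877): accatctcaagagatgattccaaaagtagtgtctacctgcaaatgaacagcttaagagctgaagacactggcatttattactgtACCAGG
Ighv1-15 (chr12:114657353-114657442): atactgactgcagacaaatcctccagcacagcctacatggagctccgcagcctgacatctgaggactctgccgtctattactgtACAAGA
Ighv1-39 (chr12:114914599-114914688): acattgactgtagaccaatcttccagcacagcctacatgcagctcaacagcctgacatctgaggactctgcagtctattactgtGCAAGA

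Of these 8 genes, 6 had every 100-base window of their transcript unique among Ighv transcripts, so that a read of that length with no mismatch belonged to 1 gene. The labels and the methods differ on the read length (150 and 100 bases), and with 150-base windows 7 of the 8 were unique throughout. For Ighv8-8, 90.7% of the 100-base windows were unique and for Ighv11-2 82.6% (95.8% at 150 bases), the closest relative of Ighv11-2 being Ighv11-1, which had 0 counts in every library. Over the 78 genes, 54 were unique in all 100-base windows and 13 in fewer than 90%, against 74 and 2 at 150 bases. Ighv1-71 had no unique window at either length, since its sequence is held in full by Ighv1-62-2, so its 23 counts are uncertain. How reads with several matches were counted is not given in the sources used here.

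The amount of Ighv mRNA differed widely between libraries. The 78 genes together had 892, 152 and 583 counts in flox vehicle replicates 1, 3 and 4, and 120, 250 and 180 in KO vehicle replicates 1, 2 and 3. They had 1269, 23207 and 2323 counts in flox MTX replicates 1, 2 and 4, and 1256, 2986 and 1011 in KO MTX replicates 2, 3 and 4. Flox MTX replicate 2 stood apart from all others and alone held 67.8% of the counts of the 78 genes, and in 43 of the 78 at least as many counts lay there as in all other libraries together. Without it, 69 genes would have reached 20 counts.

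Scaled to library size with TMM factors, the summed Ighv level was 38.7, 5.98 and 26.9 CPM in flox vehicle (23.9 ± 16.6, SD, n = 3) and 59.9, 1055 and 145 CPM in flox MTX (420 ± 551, n = 3). In KO mice it was 6.05, 10.6 and 8.44 CPM with vehicle (8.36 ± 2.27, n = 3) and 54.6, 129 and 44.2 CPM with MTX (76.1 ± 46.5, n = 3). The MTX and vehicle libraries did not overlap in either genotype, also with flox MTX replicate 2 left aside. The flox and KO libraries overlapped at the low end under vehicle (5.98 CPM in flox vehicle replicate 3) and were interleaved under MTX.

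**Figure D1:**
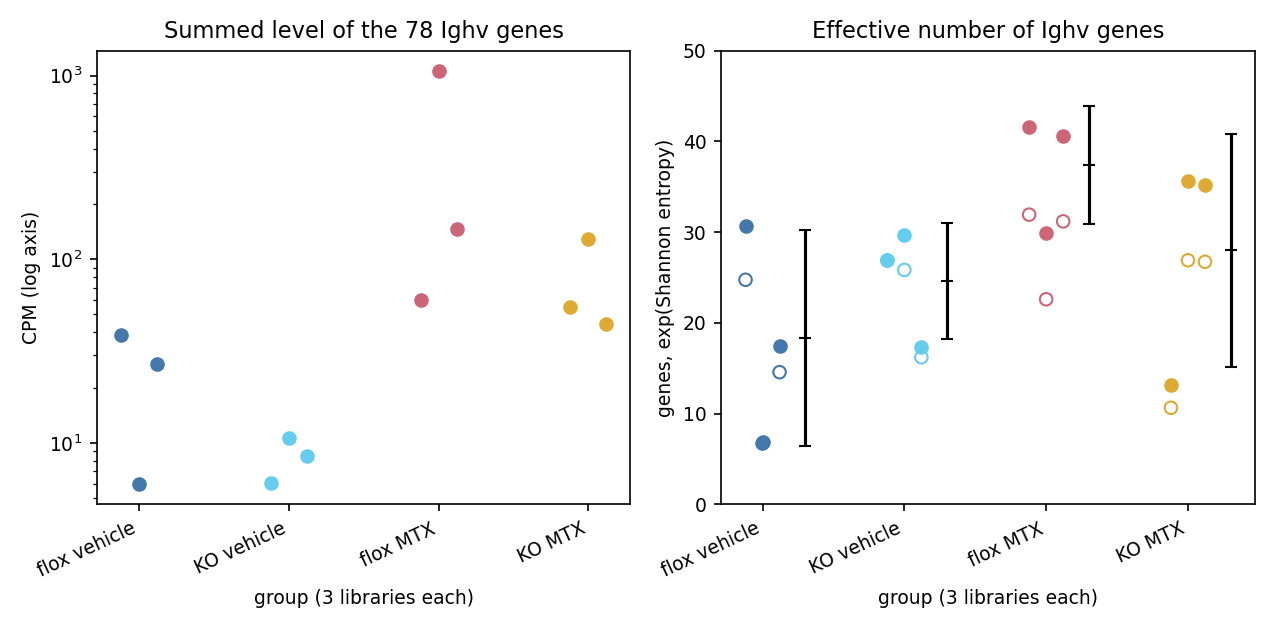
Left, summed level of the 78 Ighv genes in CPM on a log axis, 1 point per library; right, effective number of Ighv genes per library (filled points), the same at a common depth of 120 counts (open points), with the group mean and SD of the filled points beside them (n = 3). All 6 MTX libraries lay above all 6 vehicle libraries in level, from 44.2 CPM upwards against 38.7 CPM and below, whereas the effective numbers of the groups overlapped.

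Genes of other immune lists, T cell markers included, and of the epididymis also differed between these libraries. For MTX in flox mice, 8.09% of all genes tested were called higher and 16.1% lower. For MTX in KO mice 0% were called, so the 0 calls there are not particular to the markers. Of the 11 immunoglobulin constant genes tested, 7 were called higher with MTX in flox mice and 0 lower, among them Igha, the IgA heavy chain (log2 fold change 7.24 ± 0.78, SE), and Igkc, the kappa light chain (3.51 ± 1.03). Ighm, the IgM heavy chain, was not called (0.73 ± 0.39, adjusted p = 0.216). Without flox MTX replicate 2, 1 of the 11 was called, Igha (6.30 ± 0.58), and Igkc was not (1.88 ± 0.84, adjusted p = 0.132). The 16 B cell markers summed to 33.9 to 73.2 CPM in flox vehicle and 51.4 to 579 in flox MTX, and to 63.0 to 139 CPM in KO vehicle and 103 to 572 in KO MTX, so that these ranges overlapped, and 8 of the 16 were called higher in flox mice. The 13 plasma cell markers summed to 352 to 455 CPM in flox vehicle and 483 to 1606 in flox MTX, with 6 called higher, and to 405 to 485 CPM in KO vehicle and 506 to 729 in KO MTX, with 0 called. The 7 T cell markers summed to 6.77 to 13.0 CPM in flox vehicle and 21.8 to 70.1 in flox MTX, with 5 called higher, and to 15.9 to 27.7 CPM in KO vehicle and 28.8 to 54.4 in KO MTX, with 0 called. The plasma cell and T cell sums thus did not overlap between MTX and vehicle in either genotype. Xbp1, Txndc5 and Sdc1 made up 147, 155 and 115 of the 485 CPM of the plasma cell sum in KO vehicle replicate 3. In the same library, Cd72 made up 81.7 of the 132 CPM of the B cell sum. Taken singly, Slamf7, Jchain, Prdm1 and Xbp1 were higher in every KO MTX library than in every KO vehicle library. The other plasma cell markers overlapped in KO mice, such as Tnfrsf17 (0.50 to 0.89 CPM with vehicle, 0.35 to 0.56 with MTX). Without flox MTX replicate 2, the markers called higher in flox mice were 1 of 16 for B cells, 3 of 13 for plasma cells and 1 of 7 for T cells. Of all genes tested, 6.42% were called higher in that fit. Of the other lists, 1 of 5 germinal centre and 1 of 2 lymph node stroma markers tested were called higher with MTX in flox mice. In this comparison 2 of 7 intestine and 5 of 7 epididymis markers were called lower, and 0 of 9 adipocyte markers were called. Without flox MTX replicate 2, 0 of 5 germinal centre and 1 of 3 lymph node stroma markers tested were called higher. The 5 lymph node stroma markers summed to 1.10 to 13.2 CPM in flox vehicle and 11.9 to 95.1 in flox MTX, and to 2.87 to 6.61 CPM in KO vehicle and 9.0 to 70.1 in KO MTX. Cxcl13, a chemokine that attracts B cells, made up 67.9% to 99.6% of that sum, with the lowest shares in vehicle libraries, whereas Ccl21a had 0 counts in 11 of 12 libraries, Glycam1 0 in 9, and Ccl19 was at 0.61 CPM or below outside flox MTX replicate 2 (0.73). The part of these cells and of the epididymis in the Ighv levels was not tested.

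The heavy chain class differed between the treatments as well. Igha took 0.93% to 7.41% of heavy-chain constant counts in the 6 vehicle libraries and 10.5% to 40.5% in the 6 MTX libraries. Ighm took 82.5% to 97.3% with vehicle and 16.5% to 73.9% with MTX. The Ighv counts per 100 heavy-chain constant counts ran from 0.73 to 4.65 with vehicle and from 3.95 to 13.4 with MTX. These shares and ratios depend on Ighm, which ran only from 334 to 1709 CPM and did not follow the other immunoglobulin genes. In flox vehicle replicate 3, Ighm had 14347 counts and Igkc 547. Whether all Ighm counts came from rearranged heavy chains was not tested.

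No V segment led everywhere: 8 different genes held the highest share in the 12 libraries. Ighv11-2 led in 4 libraries of 3 groups, Ighv14-2 in 2 libraries of the flox groups, and Ighv1-15, Ighv6-6, Ighv1-39, Ighv1-81, Ighv10-3 and Ighv8-8 in 1 each. Counted per base of transcript, 11 of the 12 leaders stayed the same; in KO MTX replicate 3, Ighv14-2 (9.36%) then stood just above Ighv11-2 (9.30%). Over all 12 libraries, weighted equally, the highest mean shares were those of Ighv11-2 (9.75%), Ighv14-2 (7.58%), Ighv1-81 (5.78%), Ighv10-3 (4.96%) and Ighv8-8 (3.58%), followed by Ighv1-53 (3.29%), Ighv1-26 (3.04%), Ighv6-3 (2.79%), Ighv3-6 (2.71%) and Ighv5-17 (2.64%). Shares below are of the counts of the 78 genes, with 95% Wilson intervals that cover counting error only. They describe reads, which come from an unknown number of cells.

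The most dominated library was flox vehicle replicate 3, where Ighv14-2 held 89 of 152 counts, or 58.6% (50.6% to 66.1%), and the next gene, Ighv1-66, 4.61%. Ighv14-2 held 4.04% and 4.63% in the other two flox vehicle libraries and 0%, 1.2% and 0.56% in KO vehicle, where 3 counts correspond to 1.2% to 2.5%. In flox MTX replicate 4 it led with only 8.05% (7.01% to 9.23%), and in KO MTX replicate 3 it was second with 9.01%. The 58.6% was thus a feature of 1 library, although every flox vehicle library lay above every KO vehicle library in this share.

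The second most dominated library was KO MTX replicate 2, with 518 of 1256 counts on Ighv10-3, or 41.2% (38.6% to 44.0%), and 10.6% on Ighv8-8. Ighv10-3 stayed between 0% and 5.08% in the other 11 libraries. The same library had a light chain gene, Igkv3-1, at 32.6% of Igkv counts, the highest share of Ighg2b, an IgG2b heavy chain, at 14.7% of heavy-chain constant counts, and the highest lambda share of light-chain counts, 18.6%. These light-chain and class values were picked after they were seen, and whether they come from the same cells cannot be read from bulk counts.

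Flox MTX replicate 2, the library with by far the most Ighv counts, had 4803 of 23207 on Ighv1-81, or 20.7% (20.2% to 21.2%), and 8.98% on Ighv5-17. Ighv1-81 was detected in every library, at 0.34% (3 of 892 counts) to 10% (12 of 120 counts) in the other 11. In KO MTX replicate 4, Ighv8-8 led with 19.1% (16.8% to 21.6%) and Ighv7-1, the heavy chain of the T15 phosphocholine-binding receptor, was second with 7.32%. The lowest leading shares were 8.04% for Ighv1-39 in flox MTX replicate 1, 8.05% for Ighv14-2 in flox MTX replicate 4 and 9.98% for Ighv1-15 in flox vehicle replicate 1. In KO vehicle replicate 1, with 120 counts, the 10.8% of Ighv6-6 rested on 13 counts (6.44% to 17.7%) and overlapped the 12 counts of Ighv1-81.

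**Figure D2:**
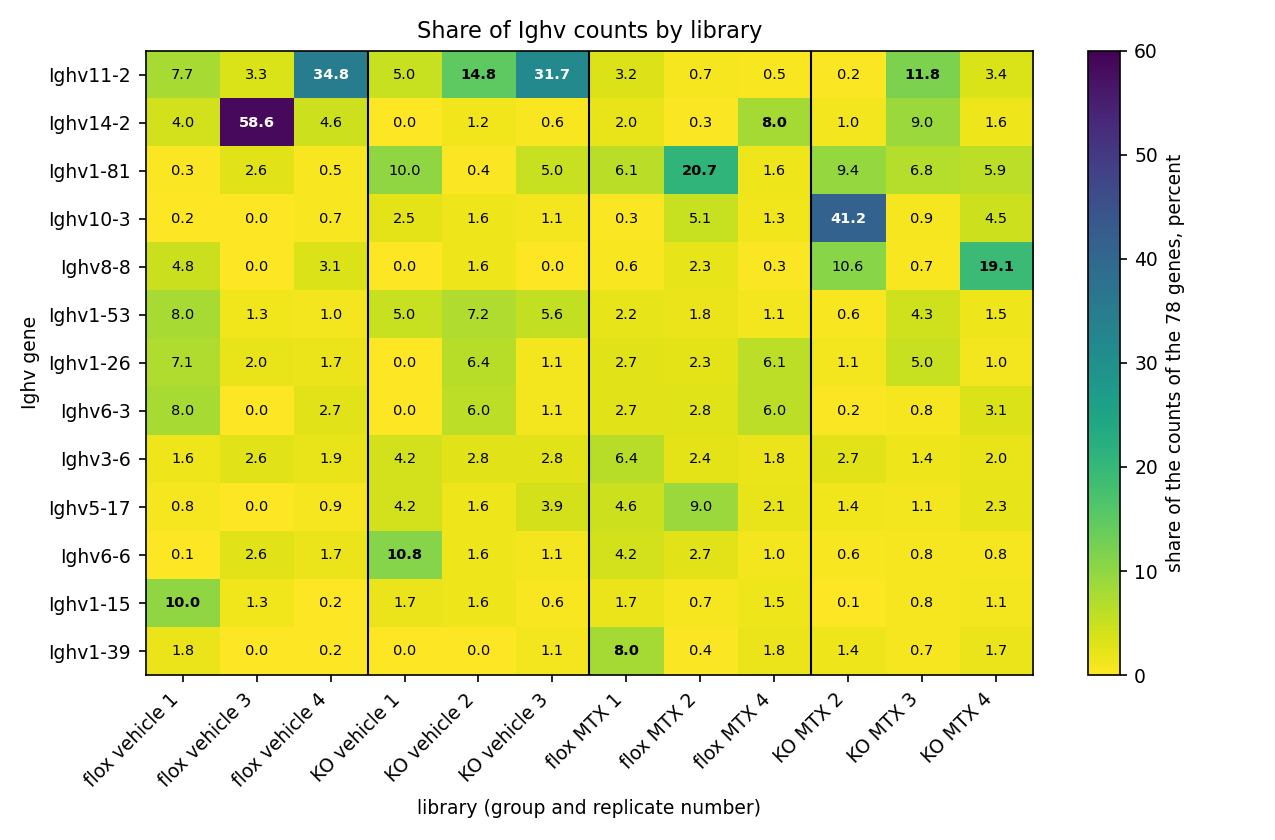
Share of the counts of the 78 Ighv genes in percent (colour and printed value) for the leading gene of each library and the 10 genes of highest mean share, by library; bold marks the leading gene, black lines separate the groups. Ighv14-2 in flox vehicle replicate 3 (58.6%) and Ighv10-3 in KO MTX replicate 2 (41.2%) stand out from the same genes in the other libraries.

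Ighv11-2 was the V segment that led the most libraries, 4 of 12. Like Ighv1-81, it was detected in all 12 libraries and among the 5 highest shares in 8. It held 7.74%, 3.29% and 34.8% in flox vehicle replicates 1, 3 and 4, and 5.0%, 14.8% and 31.7% in KO vehicle replicates 1, 2 and 3. With MTX it held 3.15%, 0.74% and 0.47% in flox replicates 1, 2 and 4, and 0.24%, 11.8% and 3.36% in KO replicates 2, 3 and 4. All 3 flox vehicle libraries lay above all 3 flox MTX libraries in share, if narrowly (3.29% on 5 counts against 3.15%), while the KO groups overlapped.

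In absolute level the order was different. Ighv11-2 was at 2.99, 0.20 and 9.37 CPM in flox vehicle and 1.89, 7.77 and 0.69 CPM in flox MTX, and at 0.30, 1.57 and 2.67 CPM in KO vehicle and 0.13, 15.2 and 1.49 CPM in KO MTX. None of the comparisons called it. The log2 fold change with MTX was -0.26 ± 1.44 (SE) in flox mice (adjusted p = 0.914, edgeR) and 1.88 ± 1.5 in KO mice (adjusted p = 0.811). The flox value rested on flox MTX replicate 2 (7.77 CPM), as the other flox MTX libraries were at 1.89 and 0.69 CPM. Whether the lower share in flox MTX reflects less Ighv11-2 or more of other V segments was not tested.

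Igkv14-126, the kappa V segment known to pair with Ighv11-2 in phosphatidylcholine-binding receptors, was looked up after the Ighv11-2 values had been seen. It held 7.31%, 12.2% and 28.3% of Igkv counts in flox vehicle and 5.71%, 14.2% and 34.7% in KO vehicle, in the same order of replicates. With MTX it held 4.38%, 0.76% and 0.28% in flox mice and 0.93%, 10.8% and 4.75% in KO mice. It was the leading Igkv gene in flox vehicle replicate 4 and KO vehicle replicates 2 and 3, which are 3 of the 4 libraries led by Ighv11-2, and second in the other one, KO MTX replicate 3. The intervals of the 2 shares did not overlap in 2 libraries. Flox vehicle replicate 3, with 58.6% of Ighv counts on Ighv14-2, had 12.2% (8.13% to 17.9%) for Igkv14-126 against 3.29% (1.41% to 7.47%) for Ighv11-2, and flox vehicle replicate 4 had 28.3% (25.8% to 30.9%) against 34.8% (31.1% to 38.8%). In KO MTX replicate 2 the 0.93% and 0.24%, on 18 and 3 counts, differed more in ratio than in the other 11 libraries, with intervals that overlapped. These are shares of counts, and the annotated transcript of Ighv11-2 is the longest of the 78. Counted per base of transcript, Ighv11-2 held 29.4% in flox vehicle replicate 4 and 26.5% in KO vehicle replicate 3. Igkv shares per base were not computed. Ighv12-3, the other V segment of this specificity, stayed at 0% to 3.6% and was highest in KO vehicle replicate 2.

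**Figure D3:**
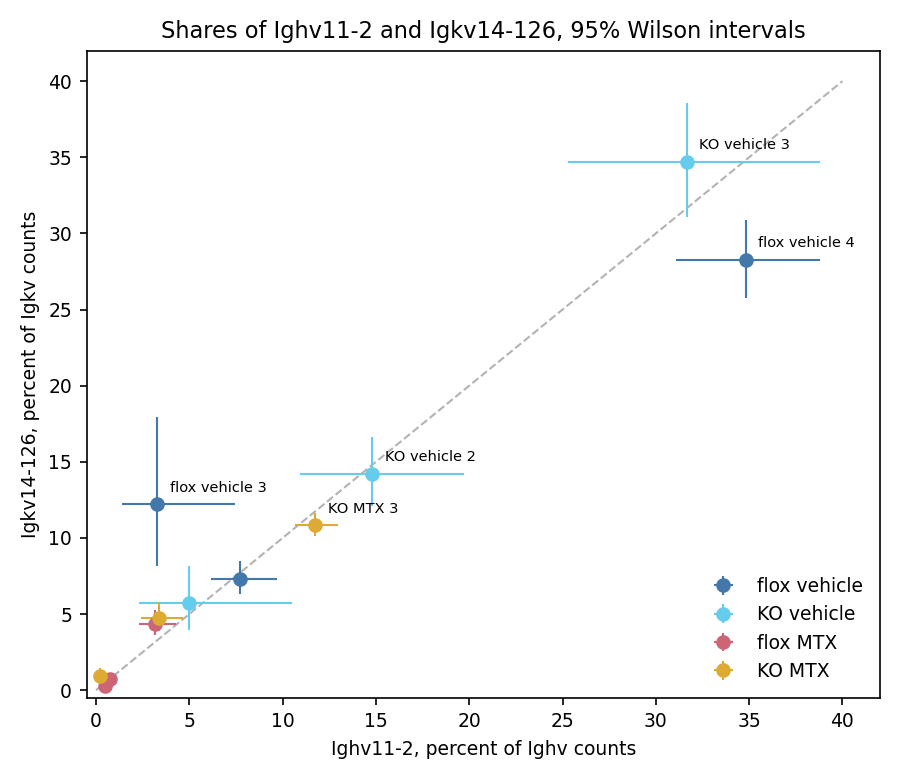
Share of Ighv11-2 among the counts of the 78 Ighv genes against the share of Igkv14-126 among Igkv counts, in percent, 1 point per library coloured by group, with 95% Wilson intervals and the line of equal shares (dashed). The shares ran from under 1% to 34.8% and 34.7%, and the intervals overlapped in 10 of the 12 libraries. The others were flox vehicle replicate 3, above the line, and flox vehicle replicate 4, under it. Shares are of counts, not per base of transcript, where Ighv11-2 held 29.4% in flox vehicle replicate 4.

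Of the other V segments with a known specificity, Ighv7-1 was used unevenly, at 0% in 4 libraries, 4.46% in flox vehicle replicate 4 and 7.32% in KO MTX replicate 4. It had 0, 0 and 26 counts in flox vehicle, 0, 0 and 3 in KO vehicle, 2, 29 and 8 in flox MTX and 1, 63 and 74 in KO MTX, and was not called (MTX in KO mice: log2 fold change 5.27 ± 1.94, adjusted p = 0.494). Ighv1-72, the V186.2 segment of the response to the hapten NP, held 0% to 2.78%, and only 57.2% of its windows were unique. Ighv5-2, the VH81X segment known for its frequent use early in life, missed the count limit with 18 counts.

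By family, Ighv1, the largest mouse family, held on average 42.7% of the counts with 40 of the 78 genes (51.3%). It ranged from 19.7% in flox vehicle replicate 3 to 57.6% in flox vehicle replicate 1, and lay within 51.6% to 54.7% in the 3 flox MTX libraries. It was also low in flox vehicle replicate 4 (23.0%, led by Ighv11-2) and KO MTX replicate 2 (25%, led by Ighv10-3). In the remaining libraries led by a gene of another family it was higher. It ran there from 35.8% in KO MTX replicate 4 (Ighv8-8) to 52.5% in KO vehicle replicate 1 (Ighv6-6). The other families of 5% or more were Ighv11 (9.75%, all of it Ighv11-2), Ighv14 (9.17%), Ighv5 (6.76%), Ighv10 (6.38%) and Ighv6 (5.13%). Ighv5 reached 19.2% in flox MTX replicate 2 and 1.57% to 10.4% elsewhere.

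**Figure D4:**
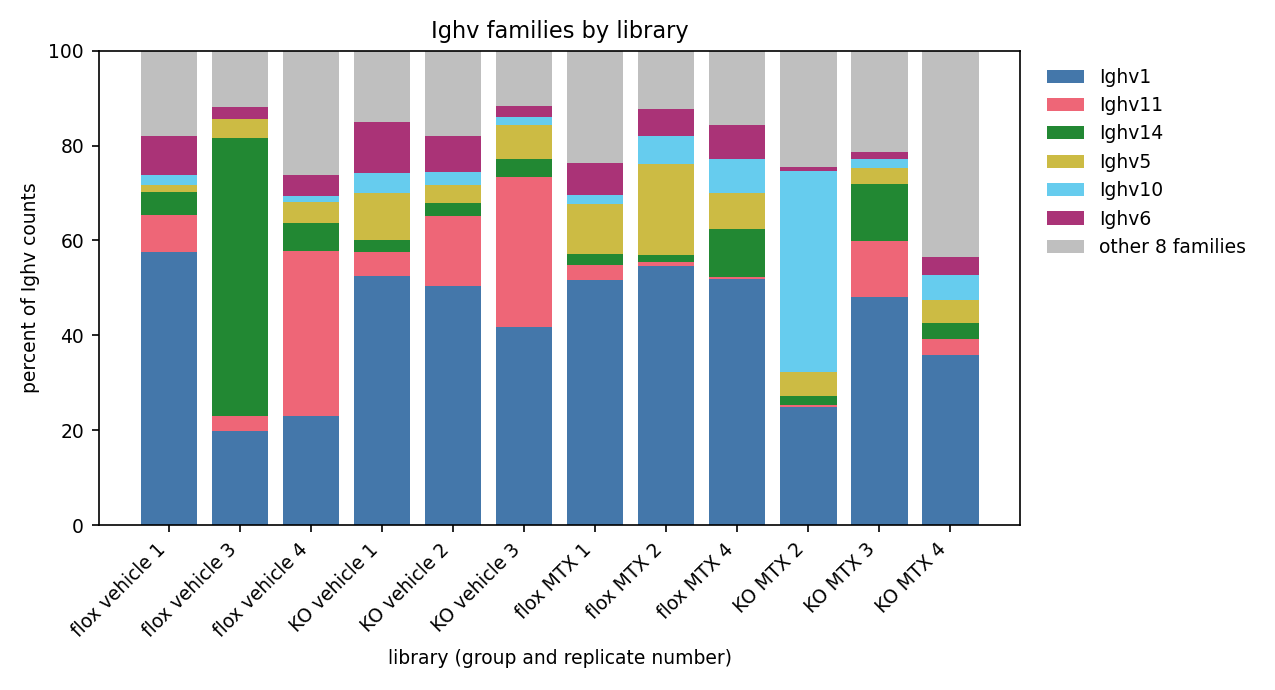
Stacked bars of the share of each Ighv family among the counts of the 78 genes, in percent, by library; the 6 families with a mean share of 5% or more are coloured and the other 8 are grey. Among the coloured families, Ighv1 is the largest block except where Ighv14 (flox vehicle replicate 3), Ighv11 (flox vehicle replicate 4) or Ighv10 (KO MTX replicate 2) is larger.

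Shares by position along the locus overlapped between most groups. Of the 78 genes, cut into 3 stretches of equal length, 31 lie in the stretch nearest the D segments, 25 in the middle and 22 in the distal one. The D-proximal genes held 77.0% and 67.6% in flox vehicle replicates 3 and 4, led by Ighv14-2 and Ighv11-2, against 25.6% in replicate 1. They held 31.7% to 54.4% in KO vehicle, 28.5% to 37.2% in flox MTX and 21.1% to 47.1% in KO MTX. The distal genes held 22.2%, 12.5% and 19.6% in flox vehicle and 25.9%, 34.7% and 25.8% in flox MTX, without overlap, and all 3 KO MTX libraries (23.7%, 26.2% and 39.8%) also lay above flox vehicle. The KO vehicle libraries, at 30.8%, 20.8% and 16.1%, overlapped every other group.

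Diversity was summarised as the effective number of genes, the exponential of the Shannon entropy of the shares, which is the number of equally used genes that would give the same entropy. It was 30.7, 6.92 and 17.4 in flox vehicle (18.3 ± 11.9, SD, n = 3) and 26.9, 29.6 and 17.4 in KO vehicle (24.6 ± 6.43). It was 41.6, 29.9 and 40.6 in flox MTX (37.4 ± 6.48) and 13.1, 35.7 and 35.2 in KO MTX (28.0 ± 12.9). The flox MTX group had the highest mean, yet its lowest library (29.9) was below the highest flox vehicle library (30.7), and the KO groups overlapped throughout. A test over this score was not run, since the genes were chosen on the same counts.

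Few counts lower this number by themselves. Thinned to the smallest total of 120 counts, the effective numbers were 24.8, 6.71 and 14.6 in flox vehicle, 26.9, 25.8 and 16.2 in KO vehicle, 31.9, 22.6 and 31.2 in flox MTX and 10.7, 26.9 and 26.7 in KO MTX. The lowest 2 libraries were still flox vehicle replicate 3 and KO MTX replicate 2, the ones dominated by Ighv14-2 and Ighv10-3. The fewest genes that together held 50% of the counts numbered 7, 1 and 4 in flox vehicle, 8, 7 and 4 in KO vehicle, 11, 7 and 11 in flox MTX and 2, 8 and 9 in KO MTX.

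Libraries of 1 group overlapped in part. The Morisita-Horn overlap, which is 1 for identical shares and 0 for no shared gene, ran from 0.136 to 0.650 (median 0.403) over the 12 pairs within a group. Over the 54 pairs between groups it ran from 0.039 to 0.881 (median 0.314). The highest value joined flox vehicle replicate 4 and KO vehicle replicate 3, both led by Ighv11-2, and the lowest within-group value joined KO MTX replicates 2 and 3.

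Single genes were then compared with edgeR's quasi-likelihood test over all 18702 genes that passed a filter on low counts, and a gene was called at a Benjamini-Hochberg adjusted p under 0.1 and a fold change of at least 1.5. Of the 78 Ighv genes, 52 passed the filter. A gene could pass it, or reach 20 counts, through 1 group where it was high, so the counts below describe the genes and support nothing further. The KO vs flox comparison under vehicle and the MTX comparison in flox mice share the flox vehicle libraries, as the other comparisons share their groups.

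With MTX in flox mice, 31 of the 52 were called higher and 0 lower, where 8.09% of all genes tested were called higher and 24.2% either way. The epididymis markers given above separated the same 2 groups, with 5 of 7 tested called lower with MTX. The median log2 fold change of the 52 was 3.95, against 0.05 over all genes tested. Without the filter, 49 of 78 were called higher against a background of 4.8%, with a median of 3.99, or 3.95 with genes absent from the flox vehicle libraries set at their lower bound. In CPM, 33 of the 78 were higher in every flox MTX library than in every flox vehicle library and 0 were lower, where 9.55% of all genes with at least 20 counts were higher in this way.

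The largest of these changes rested on flox MTX replicate 2. Ighv1-34 had 0, 0 and 0 counts in flox vehicle and 20, 1449 and 8 in flox MTX, at least 584-fold higher when 3 counts over the flox vehicle group are taken as the floor (adjusted p = 0.0210). Ighv1-81 had 3, 4 and 3 counts in flox vehicle and 78, 4803 and 37 in flox MTX (log2 fold change 8.98 ± 1.92, adjusted p = 0.0115). Ighv5-9 had 0, 1 and 0 against 12, 482 and 6 (8.59 ± 1.97, adjusted p = 0.0145).

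All 3 genes were higher in every flox MTX library than in any flox vehicle library and were still called without replicate 2, Ighv1-81 at 4.36 and Ighv5-9 at 4.61. Ighv14-4 had 0, 0 and 0 against 1, 86 and 3 counts, at least 35.6-fold higher (adjusted p = 0.0370), and Ighv3-4 had 0, 0 and 0 against 0, 61 and 10, at least 28.1-fold higher (adjusted p = 0.0843). Neither of these 2 was called without replicate 2 (adjusted p = 0.105 and 0.186). Without that library, 20 of 52 genes were called higher and 0 lower, with a median log2 fold change of 2.99, where 6.42% of all genes tested were called higher. Without flox vehicle replicate 3, 18 of 63 were called higher, where 2.03% of all genes were.

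Among the leading and most used genes, Ighv3-6 had the smallest adjusted p (0.00734), with 14, 4 and 11 counts in flox vehicle and 81, 559 and 42 in flox MTX. Ighv5-17 (7, 0 and 5 against 59, 2083 and 48), Ighv6-6 (1, 4 and 10 against 53, 628 and 23), Ighv1-39 (16, 0 and 1 against 102, 85 and 42) and Ighv10-3 (2, 0 and 4 against 4, 1179 and 31) were called as well. Ighv11-2, Ighv14-2, Ighv8-8, Ighv1-15, Ighv1-53, Ighv1-26 and Ighv6-3 were not. Ighv1-15 had 89, 2 and 1 counts against 22, 165 and 36, so that flox vehicle replicate 1 exceeded 2 of the MTX libraries.

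With MTX in KO mice, 0 of the 52 genes were called, as were 0% of all genes tested, and 16 of the 52 had an unadjusted p under 0.05. All 52 had a positive log2 fold change, with a median of 2.93 against -0.01 over all genes tested. In CPM, 31 of the 78 were higher in every KO MTX library than in every KO vehicle library and 0 were lower, against 9.57% of all genes with at least 20 counts. DESeq2, which tested 68 of the 78 genes, called 7, all higher (background 0.798% either way, 0.153% higher). These were Ighv14-2, Ighv9-3, Ighv1-76, Ighv5-16, Ighv1-39, Ighv10-3 and Ighv3-4. Ighv14-2 had 0, 3 and 1 counts in KO vehicle and 12, 269 and 16 in KO MTX, and by edgeR a log2 fold change of 6.01 ± 1.58 (adjusted p = 0.346).

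**Figure D5:**
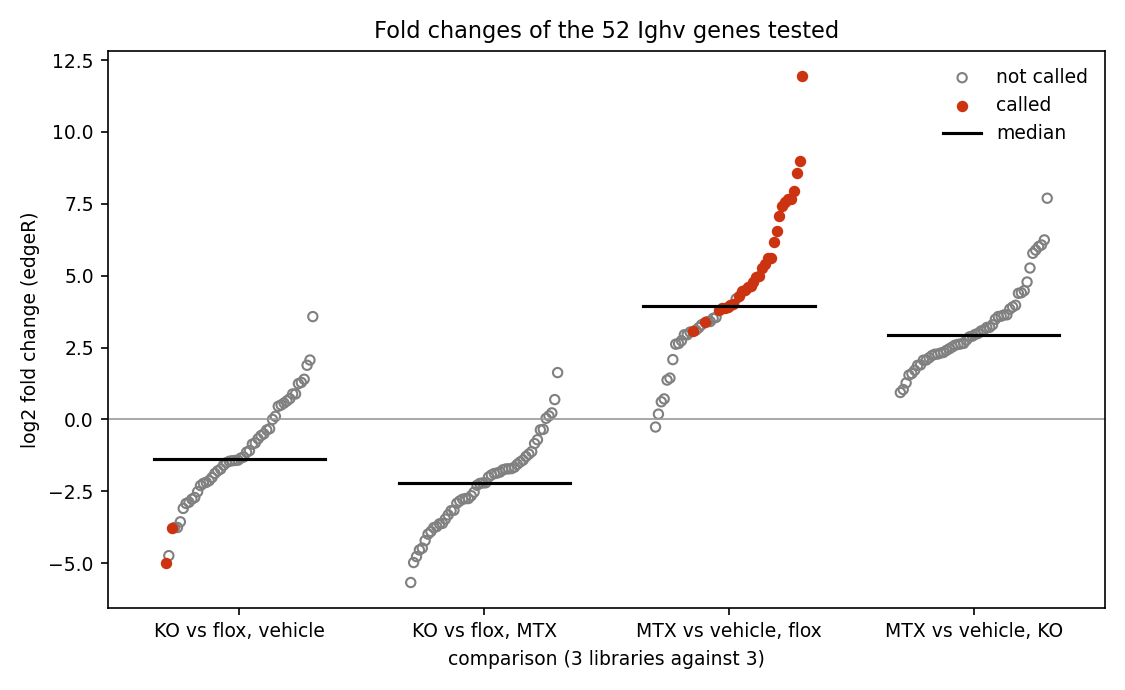
Log2 fold changes (edgeR) of the 52 Ighv genes that passed the filter in 4 comparisons of 3 libraries against 3; red points are called genes, open points the others, and the black line is the median. The 31 called points of MTX in flox mice all lie above 0, and MTX in KO mice has a median of 2.93 with no called gene.

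The interaction, the test of whether the MTX effect differed between genotypes, called 0 of the 52 genes, where 0.989% of all genes were called. Of the 52, 5 had an unadjusted p under 0.05. DESeq2 called 4 of the 68 Ighv genes it tested (background 3.54%, with 2.84% higher and 0.697% lower). These were Ighv14-2 with a larger MTX effect in KO mice, and Ighv5-6, Ighv6-6 and Ighv1-58 with a larger one in flox mice. The median over the 52 was -0.89, and 0.47 without flox MTX replicate 2, so its sign rested on that library. The 31 calls in flox and 0 in KO mice are therefore not shown to differ. Among the constant genes, Igha alone was called for the interaction (log2 -4.41 ± 0.88, adjusted p = 0.0836), and it was not without flox MTX replicate 2 (-3.48 ± 0.68, adjusted p = 0.124).

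Under vehicle, KO and flox mice differed in 2 of the 52 genes, both lower in KO, where 17.8% of all genes tested were called lower and 31.7% either way. Ighv14-2 had 36, 89 and 27 counts in flox vehicle and 0, 3 and 1 in KO vehicle (log2 fold change -4.99 ± 1.57, adjusted p = 0.0352). Its highest library was the one it dominated, but the other two flox vehicle libraries were also above every KO vehicle library. Ighv2-3 had 17, 0 and 16 against 0, 2 and 0 counts (-3.76 ± 1.47, adjusted p = 0.0768), so that its groups overlapped. The median over the 52 was -1.38, against -0.06 over all genes. Without KO vehicle replicate 3, 0 of 63 genes were called, and Ighv14-2 had an adjusted p of 0.111. Leaving out replicate 1 of either vehicle group left 1 call. Leaving out replicate 3 of flox vehicle gave 6, and leaving out replicate 1 or 2 of flox MTX gave 4, while 23.7% to 35% of all genes were called when 1 library was left out. The epididymis markers given above also separated the same 2 groups, with 5 of 7 tested called lower in KO, and their part in these values was not tested.

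Under MTX, 0 of the 52 genes were called between KO and flox mice, as were 0% of all genes tested. There were 21 of the 52 with an unadjusted p under 0.05, and the smallest adjusted p was 0.104. DESeq2 called 12 of the 68 Ighv genes it tested, all lower in KO (background 7.92% either way, 4.17% lower). The median log2 fold change was -2.21, with 47 of 52 negative, and -0.91 without flox MTX replicate 2. Leaving out replicate 3 of flox vehicle, which enters through the shared estimate of the spread, gave 9 calls of 63, where 5.4% of all genes were called. Leaving out replicate 1 of flox MTX gave 2 of 61, where 0.387% of all genes were called, and leaving out replicate 2 gave 2 of 52, where 20.8% were. In CPM, 14 of the 78 genes were lower in every KO MTX library than in every flox MTX library and 0 were higher, where 11.1% of all genes with at least 20 counts were lower in this way. Ighv5-17, with 59, 2083 and 48 counts in flox MTX and 17, 33 and 23 in KO MTX, was 1 of those whose groups did not overlap (-4.98 ± 1.28), and stood at -1.44 without flox MTX replicate 2 (adjusted p = 0.152).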

How the data were processed

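RNA was isolated from eWAT with TRIzol and sequenced as paired ends. The labels name polyA RNA and the methods ribodepletion, and which applies is not known. The authors trimmed reads (Trimmomatic 0.36), aligned them to the mouse genome (GRCm38) with STAR 2.5.2b and counted them per gene with featureCounts (Subread 1.5.2). The deposited values are raw counts per gene; strand setting and treatment of multiply mapped reads are not given in the sources used here. Rows without a gene symbol held 0.069% of counts.

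Symbols came from GENCODE M21. Genes were tested with edgeR 4.0.16 (R 4.3.3; TMM, filterByExpr, glmQLFit and glmQLFTest, 1 coefficient per group over 12 libraries, Benjamini-Hochberg over all genes), tested first on simulated data; DESeq2 1.42.0 was an alternative. The Ighv genes, marker lists and tests were chosen with earlier results of these data known. Named were the leading gene of each library, the 10 highest mean shares, up to 5 called genes per comparison and direction with the largest change, Ighv11-2, Ighv12-3, Ighv7-1, Ighv5-2 and Ighv1-72, families of 5% or more, and constant and marker genes; other genes were named after their values were seen. Replicates of a group differed beyond sampling noise.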

Additional observations from a re-analysis of the deposited data

How the results depend on the processing

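The numbers of Ighv genes called depended on the settings more than their direction did. For MTX in flox mice, 31 were called; no filter on low counts gave 49, the replicate block 13, a fit of only the 6 libraries 13, and leaving out 1 library 18 to 42. Of all genes, 8.09% were called higher, and 4.8%, 3.06%, 1.5% and 2.03% to 11.3% under these settings. For KO vs flox under vehicle, 2 were called, where 31.7% of all genes were. DESeq2 gave 7 of the 68 it tested (19.8% of all genes), only the 6 libraries 1 (33.1%) and the replicate block 3 (27.2%). Leaving out 1 library gave 0 to 6, where 23.7% to 35% of all genes were called. For KO vs flox under MTX, 0 were called, as were 0% of all genes. DESeq2 gave 12 of the 68 it tested (7.92% of all genes) and no filter 13 (2.53%). Leaving out 1 library gave 0 to 9, where 0% to 20.8% of all genes were called. The 9 came without flox vehicle replicate 3, where 5.4% of all genes were called. The 20.8% came without flox MTX replicate 2, where 2 Ighv genes were called. For MTX in KO mice and for the interaction, 0 were called, where 0% and 0.989% of all genes were. DESeq2 gave 7 and 4 of the 68 it tested, where 0.798% and 3.54% of all genes were called. Every other alternative gave 0. These include leaving out 1 library, where 0% to 1.1% and 0.0256% to 7.07% of all genes were called. RLE factors, library size alone, no fold limit and a log2 limit of 1.5 kept each count within 1.5 times; no Ighv gene had 10 counts in every library, so that alternative gave no value. The 33 calls never reversed, and in 75 of 574 refits of single genes the call was lost. Same-numbered libraries did not deviate together (median r 0.035 over 12 pairs, against 0.011 over 42 others), so the block pairs nothing but numbers. The mean effective number moved by more than 1 SD in 4 cases: 28.6 for flox MTX thinned to 120 counts, and, as inverse Simpson number, 16.0 for KO vehicle, 25 for flox MTX and 15 for KO MTX. Leaving out 1 library gave 12.2 to 24.1 for flox vehicle, 22.1 to 28.3 for KO vehicle, 35.3 to 41.1 for flox MTX and 24.2 to 35.4 for KO MTX. With the genes chosen without flox MTX replicate 2, an alternative added after seeing the data, the means were 17.7, 23.8, 35.3 and 27.0. The causes were not tested. Vehicle libraries with 120 to 892 Ighv counts limit shares under about 1%.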
